A study of Homo sapiens with 12 samples.

Results

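LBH, a small acidic nuclear protein described as a WNT target and transcription cofactor, was followed with 9 WNT target and feedback genes in lung cancer cells that overexpressed VGF, a secreted neuroendocrine precursor protein. The 9 others were AXIN2, LEF1, TCF7, NKD1, DKK1, LGR5, RNF43, ZNRF3 and SP5. The genes were taken by symbol, and all 10 were found among the 26535 features of the count and FPKM tables. LBH was selected on its measured rise with VGF in A549, so its values in comparisons that use A549 libraries are given as a description with no test. The other 9 were chosen as WNT genes, with earlier results of these data known.

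The study sequenced messenger RNA of A549 and NCI-H1299 (H1299 here), both established human non-small-cell lung cancer lines. A549 carrying the VGF lentivirus (genotype VGF-OE) was set against A549 carrying an empty vector lentivirus (genotype WT). H1299 carrying the VGF lentivirus (VGF-OE) was set against H1299 with the empty vector (WT). Each of the 4 groups had 3 libraries, described by the submitters as biologically independent. All groups had therefore received a lentivirus, and the WT label refers to the vector control. A549 was grown in DMEM/F12 and H1299 in RPMI-1640, so line and medium cannot be told apart in any comparison between the lines. Whether each infected culture was a clone or a mixed population is not given in the sources used here, and the treatment field of all 12 libraries speaks of an empty vector, so groups follow titles and characteristics.

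In canonical WNT signalling, a WNT ligand bound to Frizzled and LRP receptors stops the destruction of β-catenin, which then enters the nucleus and activates genes bound by TCF and LEF factors. Many of the activated genes encode inhibitors, which makes the pathway limit itself. AXIN2 rebuilds the destruction complex, DKK1 is secreted and blocks LRP receptors, NKD1 acts on Dishevelled, and RNF43 and ZNRF3 are membrane ubiquitin ligases that remove Frizzled from the cell surface. R-spondins, bound by LGR receptors, take these ligases away and so strengthen the signal. In lung epithelium the pathway is known for roles in development and in the upkeep of alveolar stem cells.

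Promoter sequence was shown for LBH, for DKK1 and for SP5, which differed in level by line or vector as described below. RefSeq start sites on GRCh38.p14 were available for 6 of the 10 genes, at 8 promoters. The windows of 300 bases were searched on both strands for the TCF/LEF core motifs CTTTGAT and CTTTGTT, and for CTTTG, which lies inside both. Of 35116 promoters of the same length, 2.62% held CTTTGAT, 5.2% held CTTTGTT and 47.5% held CTTTG. The lines below give the bases upstream of the annotated exons, 5′ to 3′ on the plus strand, with each CTTTG or its reverse complement CAAAG in capitals. LBH is at chr2:30231284-30231368, SP5 at chr2:170715087-170715336 and DKK1 at chr10:52314031-52314280.
LBH: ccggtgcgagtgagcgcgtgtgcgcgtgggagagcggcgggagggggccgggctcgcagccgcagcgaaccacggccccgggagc
SP5: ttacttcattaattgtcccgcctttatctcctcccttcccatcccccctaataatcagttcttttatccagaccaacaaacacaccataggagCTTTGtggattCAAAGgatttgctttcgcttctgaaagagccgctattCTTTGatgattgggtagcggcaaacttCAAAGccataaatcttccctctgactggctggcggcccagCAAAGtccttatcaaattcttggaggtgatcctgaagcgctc
DKK1: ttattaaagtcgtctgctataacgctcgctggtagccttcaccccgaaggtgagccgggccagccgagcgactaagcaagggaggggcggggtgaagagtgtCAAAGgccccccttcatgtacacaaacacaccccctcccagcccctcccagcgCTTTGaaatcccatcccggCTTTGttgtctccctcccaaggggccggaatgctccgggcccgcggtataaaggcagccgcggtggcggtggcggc

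The SP5 stretch of 250 bases held 5 CTTTG cores, one of them as CTTTGAT at position -109 from the start site. The DKK1 stretch held 3 cores, one of them as CTTTGTT at -76. The LBH stretch of 85 bases had none and was 80.0% G and C, and the full LBH window had one CTTTG at -9. CTTTGTT also lay at -50 of the second TCF7 start site, on the reverse strand. Neither longer motif was found in the windows of LBH, LEF1 or RNF43. A match describes letters in the window and does not show binding.

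The libraries held 31378171 to 41919484 counts. The check of the vector was VGF itself, which reached 1283 ± 80.1 CPM in A549 with VGF, against 2.43 ± 0.373 CPM in A549 with empty vector (SD, n = 3 each; CPM, the library-scaled count, uses TMM factors). In H1299 it reached 980 ± 119 CPM with VGF, against 85.6 ± 7.26 CPM with empty vector. All 10 epithelial markers were in the tables. They summed to 7381 to 8832 CPM in A549 with VGF, 6734 to 7283 CPM in A549 with empty vector, 1084 to 1170 CPM in H1299 with VGF and 1018 to 1104 CPM in H1299 with empty vector. CDH1, the epithelial cadherin, was at 0 in every H1299 library. A549 VGF library 2 stood apart by its endothelial markers, which summed to 698 CPM over 20 genes, against 93.0 and 98.3 CPM in the other VGF libraries and 81.8 to 92.7 CPM with empty vector. With empty vector, 6 of the 20 were at 0 in every A549 library (FLT1, TEK, EMCN, PLVAP, ERG and SOX17), and with VGF none was. That contrast does not describe every VGF library. The lowest VGF library count was 0 for TEK, EMCN, PLVAP and SOX17, and 2 for FLT1 and ERG. Over 10 fibroblast markers the sums were 27.1 to 38.9 CPM in A549 with VGF, 24.5 to 28.2 CPM in A549 with empty vector and at most 2.63 CPM in H1299. Most of the A549 fibroblast sum was COL1A1, with means of 24.4 CPM with VGF and 23.0 CPM with empty vector. Over 10 leukocyte markers the sums were 71.4 to 77.9 CPM in A549 with VGF, 89.8 to 100.1 CPM in A549 with empty vector and 103.5 to 120.4 CPM in H1299, with CD3D and MS4A1 at 0 throughout. Most of this was CD68, with means of 52.7 CPM in A549 with VGF and 70.6 CPM in A549 with empty vector. In H1299, CD68 had 110.7 CPM with VGF and 105.6 CPM with empty vector. Because of its endothelial markers, A549 values are also given without VGF library 2.

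LBH was at or near 0 in H1299 and was expressed in A549, where it was higher with VGF. LBH (ENSG00000213626, GRCh38 chromosome 2, 30231369 to 30323730, plus strand, protein-coding) had 155, 128 and 137 CPM in A549 with VGF, against 67.5, 69.0 and 61.0 CPM in A549 with empty vector. All 3 VGF libraries lay above all 3 empty vector libraries. The means were 140 ± 13.5 CPM with VGF and 65.8 ± 4.27 CPM with empty vector (SD, n = 3 each), a ratio of 2.13 and 1.09 on the log2 scale (SE 0.0950, edgeR, no test). Without VGF library 2 the log2 fold change was 1.15, and over each library left out in turn it was 1.01 to 1.15. The summed epithelial markers were also higher in the VGF libraries, by the ranges given above. Most of the sum was KRT8 (mean 4179 CPM with VGF, 3697 CPM with empty vector), KRT18 (2661 and 2237 CPM) and KRT7 (1182 and 1051 CPM). CLDN4 (10.7 and 12.8 CPM) and ESRP2 (0.0639 and 0.405 CPM) were lower with VGF. The part of these markers in the LBH difference, and in that of DKK1 below, was not tested. In H1299, LBH had 0, 0 and 0 counts with VGF and 0, 0 and 2 counts with empty vector. A count of 0 over the H1299 VGF group allows up to 0.0244 CPM, counting error only, so no change with VGF was measurable there.

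Set between the lines, LBH had 0 counts over H1299 with VGF and 14308 over A549 with VGF, and was at least 5684-fold higher in A549 against a floor of 3 counts over the group. With empty vector, H1299 had 2 counts and A549 6656, and A549 was 4282-fold higher (95% exact Clopper-Pearson interval 1185 to 35360, counting error only). Reads from fewer expressing cells and from less RNA per cell cannot be told apart in bulk libraries.

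**Figure D1:**
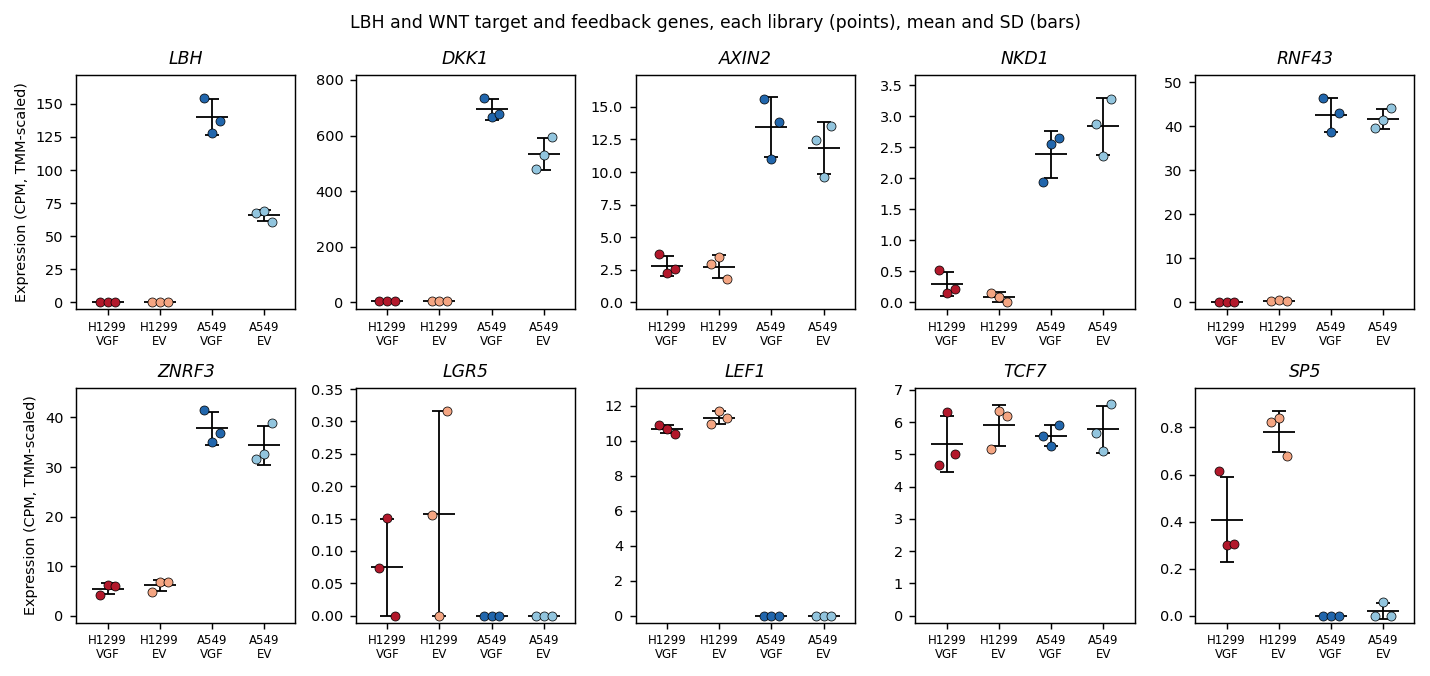
Levels of LBH and the other 9 genes by library in the 4 groups. The y axis of each panel is CPM on its own linear scale; points are libraries, and the bar and error are the mean and SD of 3 libraries per group. LBH lies at 0 to 0.0486 CPM in H1299 and at 61.0 to 155 CPM in A549.

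The genes nearest to LBH in profile were also on in A549 and near 0 in H1299. Likeness was the root-mean-square difference of log2(CPM + 0.1), each gene centred on its mean, over 12 libraries and 11138 genes with at least 5 CPM on average. The nearest were KRT86 (0.327), SIK1B (0.342), CDH1 (0.399) and TNS4 (0.482), where the first percentile of all genes was 1.05 and the median 4.92. KRT86, a hair keratin, had 143 ± 26.7 CPM in A549 with VGF and 99.7 ± 17.7 CPM in A549 with empty vector. CDH1 had 88.8 ± 7.94 CPM in A549 with VGF and 84.5 ± 5.89 CPM with empty vector, so a gene near to LBH by this measure need not have shared its difference by vector. SIK1B is a near-identical copy of SIK1, and its reads could be divided between the copies. The measure is dominated by the difference between the lines, and it is a description with no test.

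DKK1 had the highest FPKM of the 10 genes in A549 and was higher with VGF in every library of both lines. DKK1 (ENSG00000107984, chromosome 10, 52314296 to 52318042, plus strand) had 736, 667 and 679 CPM in A549 with VGF, against 479, 531 and 595 CPM with empty vector. In H1299 it had 5.17, 5.87 and 6.67 CPM with VGF, against 3.43, 4.06 and 4.04 CPM with empty vector. The groups did not overlap in either line, with VGF above empty vector in all 9 pairs of libraries. Of all 18228 features tested, the libraries did not overlap, with VGF higher, for 5.65% in H1299 and for 9.28% in A549.

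The DKK1 ratio of means was 1.54 in H1299 and 1.30 in A549. The log2 fold changes were 0.62 (SE 0.123, unadjusted p = 0.000244, adjusted p = 0.142, edgeR) in H1299 and 0.38 (SE 0.0825, unadjusted p = 0.000603, adjusted p = 0.0594, edgeR) in A549. Neither passed the threshold of an adjusted p under 0.05. With DESeq2 both passed, at adjusted p = 8.08e-05 in H1299 and 0.000186 in A549. DESeq2 also called more of all features, 128 against 2 in H1299 and 709 against 144 in A549. With limma voom A549 passed at 0.00527 and H1299 did not, at 0.609. A549 did not pass with the replicate block (0.0914) or the FPKM settings (0.0763 and 0.139). Leaving out of single libraries aside, H1299 passed in 1 of 9 other settings and A549 in 4 of 9. Without A549 VGF library 2, the A549 value was 0.40 (adjusted p = 0.081, edgeR), and without A549 empty vector library 3 the A549 call was made at adjusted p = 0.039. The effect in H1299 minus that in A549 was 0.25 (SE 0.148, adjusted p = 0.566, edgeR).

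Between the lines, DKK1 was 139-fold higher in A549 than in H1299 with empty vector, at 3.84 ± 0.355 CPM in H1299 and 535 ± 57.9 CPM in A549 (log2 fold change, H1299 over A549, -7.12, SE 0.116, adjusted p = 5.04e-14, edgeR). Of its exonic bases, 9.61% lie opposite the antisense gene PRKG1-AS1, and whether counting used strand is not given in the sources used here. In H1299, DKK1 stood behind LEF1 per length with empty vector, at 2.17 ± 0.195 FPKM, next to TCF7 at 2.24 ± 0.550 FPKM, a gap within their spread.

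**Figure D2:**
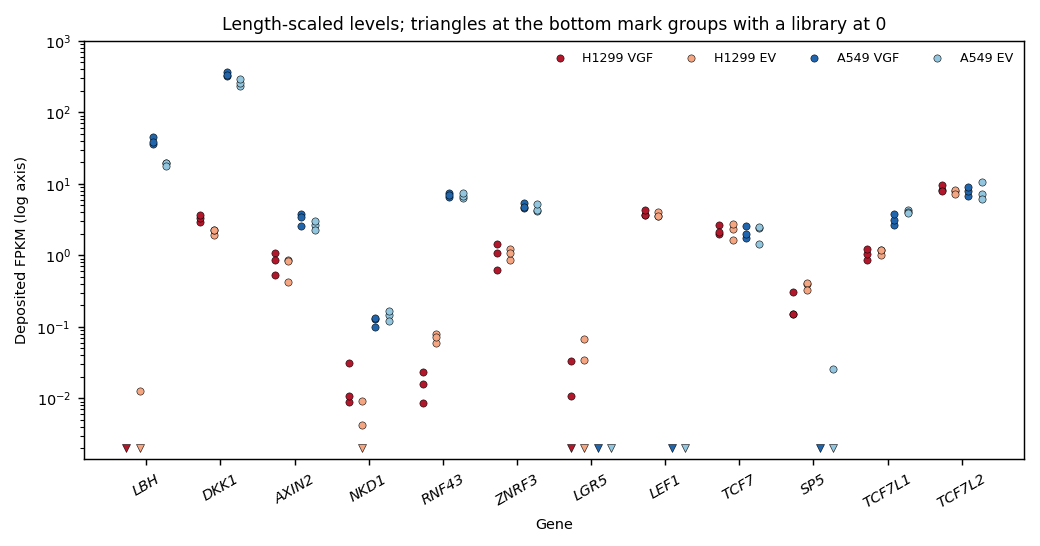
Level per transcript length of the 10 genes in the 4 groups, with TCF7L1 and TCF7L2 beside them, in FPKM on a logarithmic axis; points are libraries, and triangles at the bottom mark groups with a library at 0. LEF1 leads the 10 genes in H1299, with means of 3.86 FPKM with VGF and 3.70 FPKM with empty vector, and DKK1 leads in A549, with means of 339 FPKM with VGF and 263 FPKM with empty vector.

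Among the nuclear factors, LEF1 had counts in H1299 libraries alone, and the levels of TCF7 overlapped between the lines. LEF1 (ENSG00000138795, chromosome 4, 108047545 to 108168956, minus strand), which binds the CTTTG core together with β-catenin, had 443, 426 and 442 counts in H1299 with VGF, against 491, 516 and 465 in H1299 with empty vector. It had 0 counts in all 6 A549 libraries, so it was at least 381-fold higher in H1299 with empty vector and at least 367-fold higher in H1299 with VGF, against the floor of 3 counts over the group. In H1299 the VGF libraries lay just below the empty vector libraries, at 10.7 ± 0.246 and 11.3 ± 0.380 CPM. On the log2 scale the fold change was -0.08 (SE 0.163, adjusted p = 1.0, edgeR) and did not pass, and the order of the means was the opposite in FPKM.

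TCF7 (ENSG00000081059, chromosome 5, 134114711 to 134151865, plus strand), a factor of the same family, had 5.57, 5.27 and 5.90 CPM in A549 with VGF and 5.65, 5.11 and 6.56 CPM in A549 with empty vector. In H1299 it had 4.66, 6.30 and 5.02 CPM with VGF and 5.17, 6.35 and 6.18 CPM with empty vector. The 4 groups overlapped. The line comparison had 0.03 on the log2 scale (SE 0.175, adjusted p = 0.874, edgeR), which does not show the lines to be equal. In the annotation, 2.09% of the TCF7 exonic bases lie opposite SKP1, which had 79507 counts over the 12 libraries. Whether SKP1 reads were counted for TCF7 is not known, since strand use is not given in the sources used here. The family members outside the 10 genes were TCF7L2 at 26.6 ± 0.588 CPM in H1299 with empty vector and 28.6 ± 2.59 CPM in A549 with empty vector, and TCF7L1 at 3.32 ± 0.248 CPM in H1299 with empty vector and 13.8 ± 0.752 CPM in A549 with empty vector.

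The membrane ligases RNF43 and ZNRF3 were higher in A549, and RNF43 was close to its limit of detection in H1299. RNF43 (ENSG00000108375, chromosome 17, 58352500 to 58417595, minus strand) had 46.3, 38.7 and 42.9 CPM in A549 with VGF, against 39.6, 41.5 and 44.1 CPM in A549 with empty vector. These groups overlapped, and their log2 ratio was 0.03 (SE 0.101, adjusted p = 0.969, edgeR). In H1299 it had 4, 6 and 2 counts with VGF, against 15, 20 and 17 counts with empty vector. Every VGF library was below every empty vector library, with means of 0.0987 ± 0.0517 CPM with VGF and 0.401 ± 0.0607 CPM with empty vector (SD, n = 3 each).

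The RNF43 log2 fold change in H1299 was -2.00 (SE 0.318, unadjusted p = 3.45e-05, adjusted p = 0.0785, edgeR), short of the threshold. The effect in H1299 minus that in A549 was -2.03 (SE 0.335, adjusted p = 0.0319, edgeR) and passed. It was the only one of the 6 genes with a measurable difference between effects, LBH left out, that was called there, where 0.159% of all features were called and 0.0713% were called in the same direction. The call rests on 12 and 52 counts over the H1299 groups. It was lost with limma voom (adjusted p = 0.398), with both FPKM settings, with the replicate number as a block (0.0878) and when any one of 8 of the 12 libraries was left out (0.0286 to 0.123 over all 12). In the annotation, 57.6% of the exonic bases of RNF43 are shared with AC004687.2 on the same strand, which had 113 counts over the 12 libraries, a further 1.91% with SUPT4H1 on the same strand, which had 35463 counts, and 20.3% lie opposite TSPOAP1-AS1, so its counts are uncertain at this depth.

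ZNRF3 (ENSG00000183579, chromosome 22, 28883592 to 29057487, plus strand), its close relative, had 41.5, 35.1 and 36.8 CPM in A549 with VGF and 31.6, 32.6 and 38.8 CPM in A549 with empty vector. In H1299 it had 4.14, 6.27 and 6.01 CPM with VGF and 4.75, 6.85 and 6.71 CPM with empty vector. The vector groups overlapped in each line, with log2 fold changes of -0.16 (adjusted p = 0.949, edgeR) in H1299 and 0.14 (adjusted p = 0.795, edgeR) in A549. Between the lines with empty vector, RNF43 was 104-fold and ZNRF3 5.63-fold higher in A549 than in H1299 (adjusted p = 5.45e-13 and 1.76e-08, edgeR).

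The intracellular feedback genes AXIN2 and NKD1 were also lower in H1299. AXIN2 (ENSG00000168646, chromosome 17, 65528563 to 65561647, minus strand) had 456, 431 and 481 counts in A549 with VGF and 427, 323 and 449 counts with empty vector. In H1299 it had 150, 89 and 108 counts with VGF and 131, 154 and 73 counts with empty vector. The vector groups overlapped in both lines, and the log2 fold changes of 0.05 in H1299 (SE 0.265, adjusted p = 1.0, edgeR) and 0.18 in A549 (SE 0.251, adjusted p = 0.849, edgeR) did not pass. With empty vector, AXIN2 was 4.35-fold higher in A549 than in H1299 (adjusted p = 8.44e-06, edgeR). Of its exonic bases, 25.2% are shared with AC004805.1 on the same strand, which had 6 counts over the 12 libraries.

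NKD1 (ENSG00000140807, chromosome 16, 50548330 to 50649249, plus strand) had 57, 100 and 92 counts in A549 with VGF and 99, 79 and 109 counts with empty vector. In H1299 it had 21, 6 and 9 counts with VGF and 7, 4 and 0 counts with empty vector. The H1299 groups overlapped, since the first empty vector library was above the second VGF library. The log2 fold change of 1.77 (SE 0.686, unadjusted p = 0.0236, adjusted p = 0.568, edgeR) did not pass. It was 1.09 without H1299 VGF library 1, 1.23 without empty vector library 3 and 2.57 without empty vector library 1. With empty vector, NKD1 was 34.5-fold higher in A549 than in H1299 (log2 fold change, H1299 over A549, -5.03, adjusted p = 1.28e-05, edgeR). NKD1 reached the minimum of the filter on low counts in A549 alone, which favours a call. The log2 value was -5.83 without H1299 empty vector library 1 and -4.48 without library 3.

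SP5 and LGR5 were low genes of H1299. SP5 (ENSG00000204335, chromosome 2, 170715351 to 170718078, plus strand), a zinc-finger factor and direct WNT target, had 25, 12 and 13 counts in H1299 with VGF, against 37, 37 and 28 counts with empty vector. The groups did not overlap, yet the log2 fold change of -0.93 (SE 0.666, adjusted p = 0.84, edgeR) did not pass. In A549, SP5 had 0 counts in every library but the second with empty vector, which had 2. With empty vector, H1299 was 39.6-fold higher than A549 (95% exact interval 10.7 to 332, counting error only). The edgeR adjusted p was 0.000439, but SP5 reached the minimum of the filter on low counts in H1299 alone, which favours a call. LGR5 (ENSG00000139292, chromosome 12, 71439770 to 71586310, plus strand), an R-spondin receptor of stem cells, had 3, 6 and 0 counts in H1299 with VGF, 7, 0 and 13 in H1299 with empty vector, and 0 in all A549 libraries. It was the one gene of the 10 that did not pass the filter on low counts, and it was not tested.

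Counted together, 6 genes other than LBH had a measurable fold change with VGF in A549, and 4 of the 6 were positive. None of the 6 was called, where 0.79% of all features were called. LEF1 and SP5 were also in the fit, but at most 2 counts per A549 library left no room for a call. At an unadjusted p under 0.05, DKK1 alone would have passed in A549, against 13.9% of all features. The median log2 fold change of the 6 genes was 0.08, against 0.00 over all features. Without VGF library 2, the log2 fold changes in A549 were 0.31 for AXIN2, 0.19 for ZNRF3, 0.10 for RNF43, -0.01 for TCF7 and -0.30 for NKD1, and none was called. In H1299 none of the 8 genes with a measurable fold change was called, where 0.011% of all features were. Of the 8, 3 were positive, with a median of -0.12, against -0.01 over all features. LBH was also in the fit, but 0 counts with VGF and 2 with empty vector left no room for a call. At an unadjusted p under 0.05, DKK1, RNF43 and NKD1 would have passed in H1299, against 7.8% of all features. Of the 8 genes in H1299, 4 had groups that did not overlap (DKK1 higher, and LEF1, RNF43 and SP5 lower with VGF), against 12.7% of all features. In A549, DKK1 alone of the 6 did not overlap, with VGF higher, as for 9.28% of all features.

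**Figure D3:**
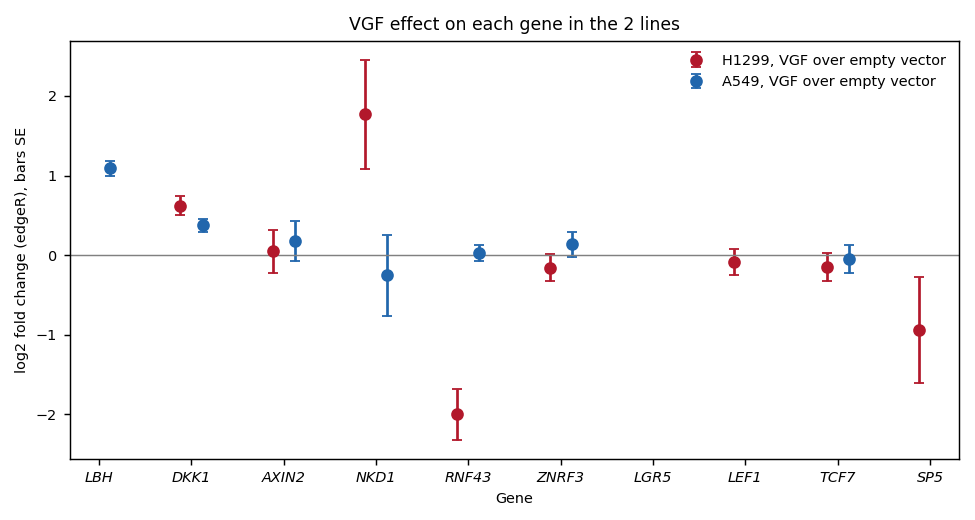
Log2 fold change of VGF over empty vector in each line from edgeR, with bars of 1 SE, for the genes with a measurable fold change. DKK1 lies above 0 in both lines, at 0.62 in H1299 and 0.38 in A549, and RNF43 lies at -2.00 in H1299 and 0.03 in A549. LBH in A549 was chosen for its value of 1.09.

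Between the lines with empty vector, 7 of the 8 tested genes other than LBH differed, where 77.2% of all features did. LEF1 and SP5 were higher in H1299 than in A549, a direction in which 38.5% of all features were called. AXIN2, DKK1, NKD1, RNF43 and ZNRF3 were lower in H1299, as were 38.6% of all features, and TCF7 did not pass. LEF1, SP5 and NKD1 reached the minimum of the filter on low counts in one line alone, and the filter favours a call for such genes. Of the 5 that reached it in both lines, 4 (80.0%) were called, against 76.8% of all features that did. The same 7 directions were seen with VGF in both lines, a comparison made with no test. RNF43 was then 432-fold, DKK1 118-fold, NKD1 8.13-fold, ZNRF3 6.91-fold and AXIN2 4.77-fold higher in A549 than in H1299.

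The other genes of the pathway were taken from 6 lists of ligands, receptors, extracellular inhibitors, cytoplasmic components, nuclear cofactors and further targets, with 124 genes in the tables and 104 tested. With VGF in A549, 1 rose (JUN) and 3 fell (SHISA3, SOX9 and CD44), which is 3.85% of those tested, against 0.79% of all features, and their median log2 fold change was -0.01, against 0.00 over all features. With VGF in H1299 none was called, against 0.011% of all features, and the median was -0.02, against -0.01 over all features. The lists were written when several of these calls were known, so the share carries no independent weight.

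SHISA3, which holds Frizzled receptors inside the cell and so limits WNT signalling, had 0.992, 1.28 and 0.892 CPM in A549 with VGF, against 16.6, 14.6 and 15.9 CPM with empty vector. The groups were far apart, and the log2 ratio was -3.89 (SE 0.306, adjusted p = 0.000106, edgeR), and -4.06 without VGF library 2. In H1299, SHISA3 had 0.276 ± 0.0476 CPM with VGF and 0.399 ± 0.223 CPM with empty vector. Its effect in H1299 minus that in A549 was 3.37 (SE 0.465, adjusted p = 0.0125, edgeR), the one pathway gene called for that difference. That call was lost without H1299 VGF library 1 (adjusted p = 0.0518, edgeR) and kept without any other single library.

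SOX9, a transcription factor of lung progenitors, had 41.4, 38.8 and 44.4 CPM in A549 with VGF, against 56.5, 53.4 and 63.3 CPM with empty vector (log2 fold change -0.48, SE 0.0773, adjusted p = 0.0167, edgeR). The SOX9 call was lost without empty vector library 1 or 3, with a highest adjusted p of 0.0547, and kept without VGF library 2 (-0.43, adjusted p = 0.0454, edgeR). JUN, an AP-1 subunit, had 68.1, 78.9 and 112 CPM with VGF, against 53.8, 47.1 and 44.4 CPM with empty vector in A549 (log2 fold change 0.84, adjusted p = 0.0277, edgeR). The JUN call was lost without any one of the 3 empty vector libraries, with adjusted p up to 0.0964, and with a replicate block, at 0.0923. Without VGF library 2, JUN stood at 0.90 (adjusted p = 0.0325, edgeR). CD44, a hyaluronan receptor, had 693 ± 13.2 CPM with VGF and 774 ± 12.2 CPM with empty vector (log2 fold change -0.16, adjusted p = 0.0401, edgeR), a call lost when any one of 11 of the 12 libraries was left out (adjusted p up to 0.114).

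**Figure D4:**
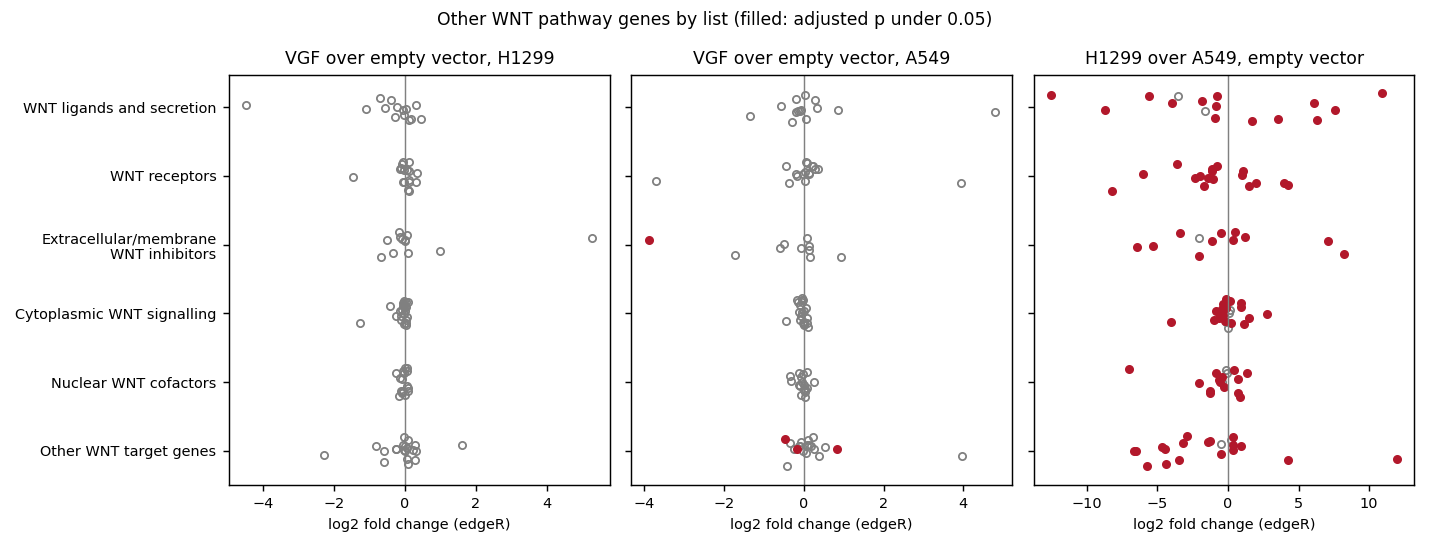
Log2 fold changes of the other WNT pathway genes from edgeR, one point per tested gene by list, for VGF over empty vector in H1299, VGF over empty vector in A549, and H1299 over A549 with empty vector; filled points have an adjusted p under 0.05. With VGF, 4 points are filled in A549 and none in H1299, and 91 are filled between the lines. Genes with at most 3 counts in both groups are left out, and other points far from 0 in the VGF panels can rest on few counts.

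Between the lines with empty vector, 35 of the 104 pathway genes were higher and 56 lower in H1299, which is 87.5%, against 77.2% of all features. Of the 104 genes, 21 (20.2%) reached the minimum of the filter on low counts in one line alone, against 21.5% of all features. Among them were RSPO3, RSPO4, WNT7B, WNT4, WNT16, WNT5B, FZD8, TLE4, MMP7 and CCND2. The filter favours a call for such genes, but WNT11 (adjusted p = 0.0635, edgeR) and WNT8B (adjusted p = 0.212, edgeR) were not called. Of the 81 that reached the minimum in both lines, 86.4% were called, against 76.8% of all features that did. The tested R-spondins and their receptors differed in both directions. RSPO3, an R-spondin, had 0, 3 and 0 counts in the H1299 libraries, against 5123, 5014 and 5641 in A549. LGR4, an R-spondin receptor, had 7.21 ± 0.332 CPM in H1299 and 473 ± 43.4 CPM in A549 (SD, n = 3 each; log2 fold change -6.03, adjusted p = 4.25e-13, edgeR). Higher in H1299 were RSPO4 (0.610 ± 0.215 CPM in H1299, 0 in A549, adjusted p = 0.000631, edgeR) and LGR6 (0.365 ± 0.148 CPM in H1299, 0.0199 ± 0.0345 CPM in A549, adjusted p = 0.0176, edgeR). Both were at low levels and were named after their values were seen, so their p-values are a description. With VGF the order of the LGR6 means was the opposite, at 0.13 ± 0.11 CPM in H1299 and 0.34 ± 0.27 CPM in A549. RSPO4 also reached the filter minimum in H1299 alone. LGR5 had counts in H1299 as given above.

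Between the lines, 77.2% of all features were called, 38.5% higher and 38.6% lower in H1299. The shares called were 87.5% of ligand and secretion genes, 100% of receptors and 91.7% of extracellular and membrane inhibitors. Of the 16 tested ligand and secretion genes, 6 were higher and 8 lower in H1299. WNT5B (15.7 ± 1.40 CPM in H1299, 0.227 ± 0.123 CPM in A549), WNT16 (6.27 ± 1.18 CPM in H1299, 0 in A549) and WLS, which carries WNT proteins to the cell surface (173 ± 2.38 CPM in H1299, 15.1 ± 0.563 CPM in A549), were higher. WNT7B (0.105 ± 0.0941 CPM in H1299, 46.8 ± 4.19 CPM in A549) and WNT4 (0.147 ± 0.130 CPM in H1299, 7.24 ± 1.20 CPM in A549) were lower. All 17 tested receptors differed, 6 higher and 11 lower. FZD1 (log2 fold change 2.00), PTK7 (1.47) and FZD6 (1.03) were higher in H1299, and FZD8 (-8.20) and ROR1 (-3.59) were lower. Of the 12 tested extracellular and membrane inhibitors, 5 were higher, among them TRABD2A (1.21), DKK3 (0.48) and TMEM131L (0.33; its adjusted p was 0.0274, edgeR), and 6 were lower, among them SHISA3 (-5.30), KREMEN2 (-2.07) and SFRP1 (-1.11).

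The shares called were 77.3% of cytoplasmic components, 82.4% of nuclear cofactors and 90.0% of further targets, against 77.2% of all features. Of 22 cytoplasmic components, 7 were higher in H1299, led by CTNNBIP1, an inhibitor of β-catenin (2.75 on the log2 scale), CSNK1A1 (1.46) and DVL1 (1.12). A further 10 were lower, led by NKD2, the relative of NKD1 (-4.03), AMER1 (-1.02) and AXIN1 (-0.83). Of 17 nuclear cofactors, 5 were higher, led by BCL9 (1.34), CTBP1 (0.85) and SMARCA4 (0.74), and 9 were lower, led by TLE4 (-6.99), TCF7L1 (-2.05) and TLE2 (-1.27). Of 20 further targets, 6 were higher, led by CCND2 (13.3 ± 0.321 CPM in H1299, 0 in A549), FOSL1 (4.24) and SOX9 (0.89), and 12 were lower, led by MMP7 (-6.67), BAMBI (-6.50) and TBX3 (-5.72).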

How the data were processed

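The authors deposited raw counts per feature and FPKM values, scaled by length and library size, for 12 libraries. The submitters' processing notes name GRCh38 and DESeq2. Which aligner, counter and annotation release were used, and whether strand was, is not given in the sources used here, so reads of overlapping genes may be split. In each table, 18 lines of stray annotation text were left out. Coordinates came from GENCODE release 29, which held each of the 19974 Ensembl IDs.

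Counts were fitted with edgeR 4.0.16 in R 4.3.3: filterByExpr by group, TMM, 4 group means, the quasi-likelihood F test and Benjamini-Hochberg adjustment over 18228 features. Features were called at an adjusted p under 0.05. The fit had 8 residual degrees of freedom, and the script was tested on simulated data. CPM values were computed from the counts with TMM factors of 0.919 to 0.940 in A549 and 1.06 to 1.09 in H1299. FPKM was used to compare genes per length. No fold was given where both groups had at most 3 counts. Floors are 3 counts over a group, and floors and intervals cover counting error only.

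Alternatives were DESeq2 1.42.0 and its size factors, limma 3.58.1 with voom, limma on log2(FPKM + 1) or log2(FPKM + 0.1), no filter, each line alone, a replicate block and leaving out each library. Replicates of a group differed by more than sampling noise (chi-square per degree of freedom 7.67 to 21.7). Libraries with the same replicate number did not deviate together (correlations -0.077 to 0.105), so they were not treated as paired.

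The 10 genes and the lists were chosen with earlier results of these data known. Named were these genes, VGF, each pathway gene called with VGF, up to 3 per list and direction between the lines among called genes that reached 5 CPM in either line, and the 5 genes nearest to LBH, of which 1 is not reported here. TCF7L2, RSPO4 and LGR6 were named in addition, after their values were seen.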

Additional observations from a re-analysis of the deposited data

Results flagged for a closer look

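The VGF effect on RNF43 differed between the lines, with a log2 difference (H1299 minus A549) of -2.03 (SE 0.335, adjusted p = 0.0319, edgeR). The call rests on 12 and 52 counts over the H1299 groups. It was lost with voom, both FPKM settings and the replicate block, and without any one of 8 of the 12 libraries (adjusted p 0.0286 to 0.123, edgeR). RNF43 was lower with VGF in all 9 pairs of H1299 libraries and higher in 5 of 9 pairs in A549.

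The VGF effect on SHISA3 also differed between the lines, with a log2 difference of 3.37 (SE 0.465, adjusted p = 0.0125, edgeR). It was lost without H1299 VGF library 1 (adjusted p = 0.0518, edgeR). SHISA3 was at 1.05 ± 0.201 CPM in A549 with VGF and 15.7 ± 1.03 CPM in A549 with empty vector, and H1299 had under 1 CPM in both groups.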

How the results depend on the processing

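LGR5 was not tested, and the other 9 genes had 614 values under other settings. Of these, 572 kept their direction and side of the threshold and 18 reversed, each of a difference that was not called. For LBH, which had no test, the side of the threshold does not apply. A further 12 values lost a call, 7 gained one and 5 moved in another way. With log2(FPKM + 1) and log2(FPKM + 0.1), TCF7 reversed in H1299 (0.0209 and 0.0344), in A549 (0.007 and 0.018) and for the difference of effects (0.0139 and 0.0164), and LEF1 in H1299 (0.0469 and 0.0577). Without single libraries the sign changed within the ranges -0.193 to 0.263 for AXIN2 in H1299, -0.309 to 0.0102 for ZNRF3 in H1299, -0.126 to 0.0535 for TCF7 and -0.032 to 0.0969 for RNF43 in A549, -0.378 to 0.0784 for the AXIN2 difference of effects, and -0.0379 to 0.134 for TCF7 between the lines. In A549, 1 of the genes was called (DKK1, higher) with DESeq2, voom, no filter or each line alone, and 0 to 1 without single libraries. In H1299, 2 were called with DESeq2 (DKK1 and RNF43). For the difference of effects, 0 were called with voom, either FPKM setting or the replicate block, and 0 to 1 without single libraries. Of the other pathway genes, DESeq2 called 8 in A549 (2 higher) and 3 for the difference. The replicate block called 2 in A549, and leaving out single libraries gave 1 to 5 in A549 and 0 to 1 for the difference. The replicate block shared by the 4 groups, chosen after seeing the data because the block within line gives no line contrast, called 7 of the genes between the lines, as without it. The cause of these changes was not tested. Over all features, calls with VGF in A549 numbered 144 in the main analysis, 709 with DESeq2, 334 with voom, 63 with the block and 52 to 130 without single libraries. In H1299 they numbered 2 in the main analysis and 128 with DESeq2 (1 to 4 without single libraries), and for the difference 29 in the main analysis and 279 with DESeq2 (18 to 36 without single libraries). In H1299, RNF43, NKD1, SP5 and LGR5 had at most 37 counts per library, at library totals like those of A549, which limits how small a change in them could be measured.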
